A study of Mus musculus with 21 samples.

Results

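The interferon regulatory factor family was followed in CD4+ T cells taken from the spleen after a low or a high dose of antigen. Its members here are the 8 genes Irf1, Irf2, Irf3, Irf4, Irf5, Irf7, Irf8 and Irf9, found by symbol among the 15249 named genes of the log2 table and then by Ensembl identifier among the 47643 genes of the count table.

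All 21 libraries came from mice of the strain Tg4 Tiger Nr4a3-Tocky, with 3 mice in each of 7 groups. The Tg4 transgene gives T cells 1 receptor specificity, a peptide of myelin basic protein (MBP). Tiger is a reporter allele that places GFP at Il10, and Nr4a3-Tocky drives a Timer protein, whose fluorescence matures from blue to red, from Nr4a3, a gene that receptor signalling switches on. The control mice were untreated and carried the same 3 alleles, and the immunised mice were given [4Y] MBP peptide under the skin without adjuvant, at a dose of 0.8 µg or 80 µg, 4 h, 12 h or 24 h before the spleen was taken. The gate was Blue+Red− for 4 h, Blue+Red+ for 12 h and Blue−Red+ for 24 h, so that gate and time cannot be told apart, and the gate of the control cells and the age of the mice are not given in the sources used here.

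Interferon regulatory factors are transcription factors that share a DNA-binding domain and recognise the interferon-stimulated response element. Irf3, Irf5 and Irf7 act downstream of sensors of microbial nucleic acid, Irf9 is the DNA-binding part of the complex that carries the type I interferon signal, and Irf1 and Irf2 act on shared sites, Irf1 chiefly as an activator and Irf2 as its antagonist. Irf4 and Irf8 are the members of lymphoid and myeloid cells; they bind DNA together with partners such as Batf with Jun proteins, or Ets factors, and Irf4 is known in T cells as a gene induced through the T cell receptor.

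Library totals ranged from 2352800 to 6244279 counts, and 3 counts, taken as the floor, corresponded to 0.48 to 1.28 CPM (counts scaled to a common library total). T cell markers were abundant in every library (summed normalised counts of 9 genes between 5160 and 14400), and were lower at 4 h and 12 h (5160 to 8440) than in the control and 24 h groups (12000 to 14400). Among 16 myeloid and conventional dendritic cell markers, 13 reached 10 counts over all libraries, and Clec9a was at 0 throughout. The sum of all 16 was 50 to 99 in the control. With 0.8 µg and 80 µg respectively it was 47.5 to 166 and 19.7 to 63.9 at 4 h. It was 96.3 to 157 and 20.4 to 127 at 12 h, and 92.9 to 147 and 30.2 to 170 at 24 h. Of 5 plasmacytoid dendritic cell markers, Siglech, Klk1 and Cox6a2 stayed under 10 counts over all libraries. In bulk samples such as these, fewer cells of a type and less RNA per cell cannot be told apart.

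The sequences before the gene starts are shown for 4 members, Irf4 and Irf8 because they carried the dose difference, and Irf1 and Irf2 because their windows held the most kinds of motif. Each is the 250 bases upstream of the RefSeq start (GRCm38.p6), the first of 2 starts for Irf1 and Irf8. The letters run 5′ to 3′ on the + strand, on which all 4 genes lie, with every match to one of 4 searched motifs in capitals.
Irf4 (chr13:30748983-30749232): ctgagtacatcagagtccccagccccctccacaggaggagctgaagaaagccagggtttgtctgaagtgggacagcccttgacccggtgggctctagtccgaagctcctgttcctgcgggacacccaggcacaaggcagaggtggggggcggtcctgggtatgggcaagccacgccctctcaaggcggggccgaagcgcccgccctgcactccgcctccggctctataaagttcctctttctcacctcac
Irf8 (chr8:120736108-120736357): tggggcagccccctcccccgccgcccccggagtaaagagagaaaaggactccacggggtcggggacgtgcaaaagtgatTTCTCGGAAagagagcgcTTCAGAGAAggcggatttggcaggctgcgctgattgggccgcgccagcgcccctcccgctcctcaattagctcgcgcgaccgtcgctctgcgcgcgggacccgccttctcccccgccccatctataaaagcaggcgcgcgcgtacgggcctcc
Irf1 (chr11:53769764-53770013): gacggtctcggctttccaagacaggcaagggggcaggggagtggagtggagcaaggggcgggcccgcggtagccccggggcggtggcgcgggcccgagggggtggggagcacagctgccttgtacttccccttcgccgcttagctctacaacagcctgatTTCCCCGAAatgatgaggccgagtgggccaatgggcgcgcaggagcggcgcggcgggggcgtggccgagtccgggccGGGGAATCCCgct
Irf2 (chr8:46739495-46739744): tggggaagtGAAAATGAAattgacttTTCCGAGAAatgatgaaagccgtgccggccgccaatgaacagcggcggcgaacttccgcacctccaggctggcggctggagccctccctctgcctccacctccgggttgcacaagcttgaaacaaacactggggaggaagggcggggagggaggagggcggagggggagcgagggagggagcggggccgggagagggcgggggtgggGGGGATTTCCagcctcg
The search covered both strands of 300 bases, 250 before and 50 after the start, of 32851 promoters, 11 of them belonging to the 8 members. GAAANNGAA, the core of the interferon-stimulated response element, was present in 8.56% of all promoters, TTCNNNGAA, the site of STAT factors, in 8.3%, TGANTCA, the AP-1 site, in 7.81%, and the kappa B site in 8.46%. Irf8 held 2 STAT matches, TTCTCGGAA starting 171 bases and TTCAGAGAA starting 153 bases upstream. Irf1 held a STAT match, TTCCCCGAA, 90 bases upstream and a kappa B match 13 bases upstream, and Irf2 held a response element core 241 bases, a STAT match 224 bases and a kappa B match 17 bases upstream. All these matches lay in the promoters shown, and the second promoters of Irf1 and Irf8 held none. The promoters of the other 5 members, Irf4 among them, contained none of these letters either. A match or its absence describes the window and not binding.

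Expression is given below as counts normalised by the DESeq2 size factor of the library, the log2 fold change is shrunken toward 0, and a gene is called when its adjusted p is under 0.05 and its absolute log2 fold change is above 1. The p-values rest on the spread between the 3 samples within each group, with the dispersion of a gene estimated jointly over all groups of the fit.

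The dose comparison asked whether the amount of antigen set the level of each factor at a given time, and the answer differed between Irf4, Irf8 and the other members. At 4 h Irf4 and Irf8 were called higher with 80 µg, 2 of the 8 members where 5.85% of all tested genes were called. At 12 h Irf4 alone was called (2.79% of all tested genes), and at 24 h none of the members was (1.56%). At 24 h 1 member, Irf4, had an unadjusted p under 0.05 in DESeq2, and edgeR called 0 members as well, with 1 at an unadjusted p under 0.05. The median log2 fold change of the 7 members with an adjusted p was 0.53 at 4 h, beside -0.02 for all tested genes. It was -0.13 beside 0.01 at 12 h for the 8 members, and -0.01 beside 0.02 at 24 h for 7.

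**Figure D1:**
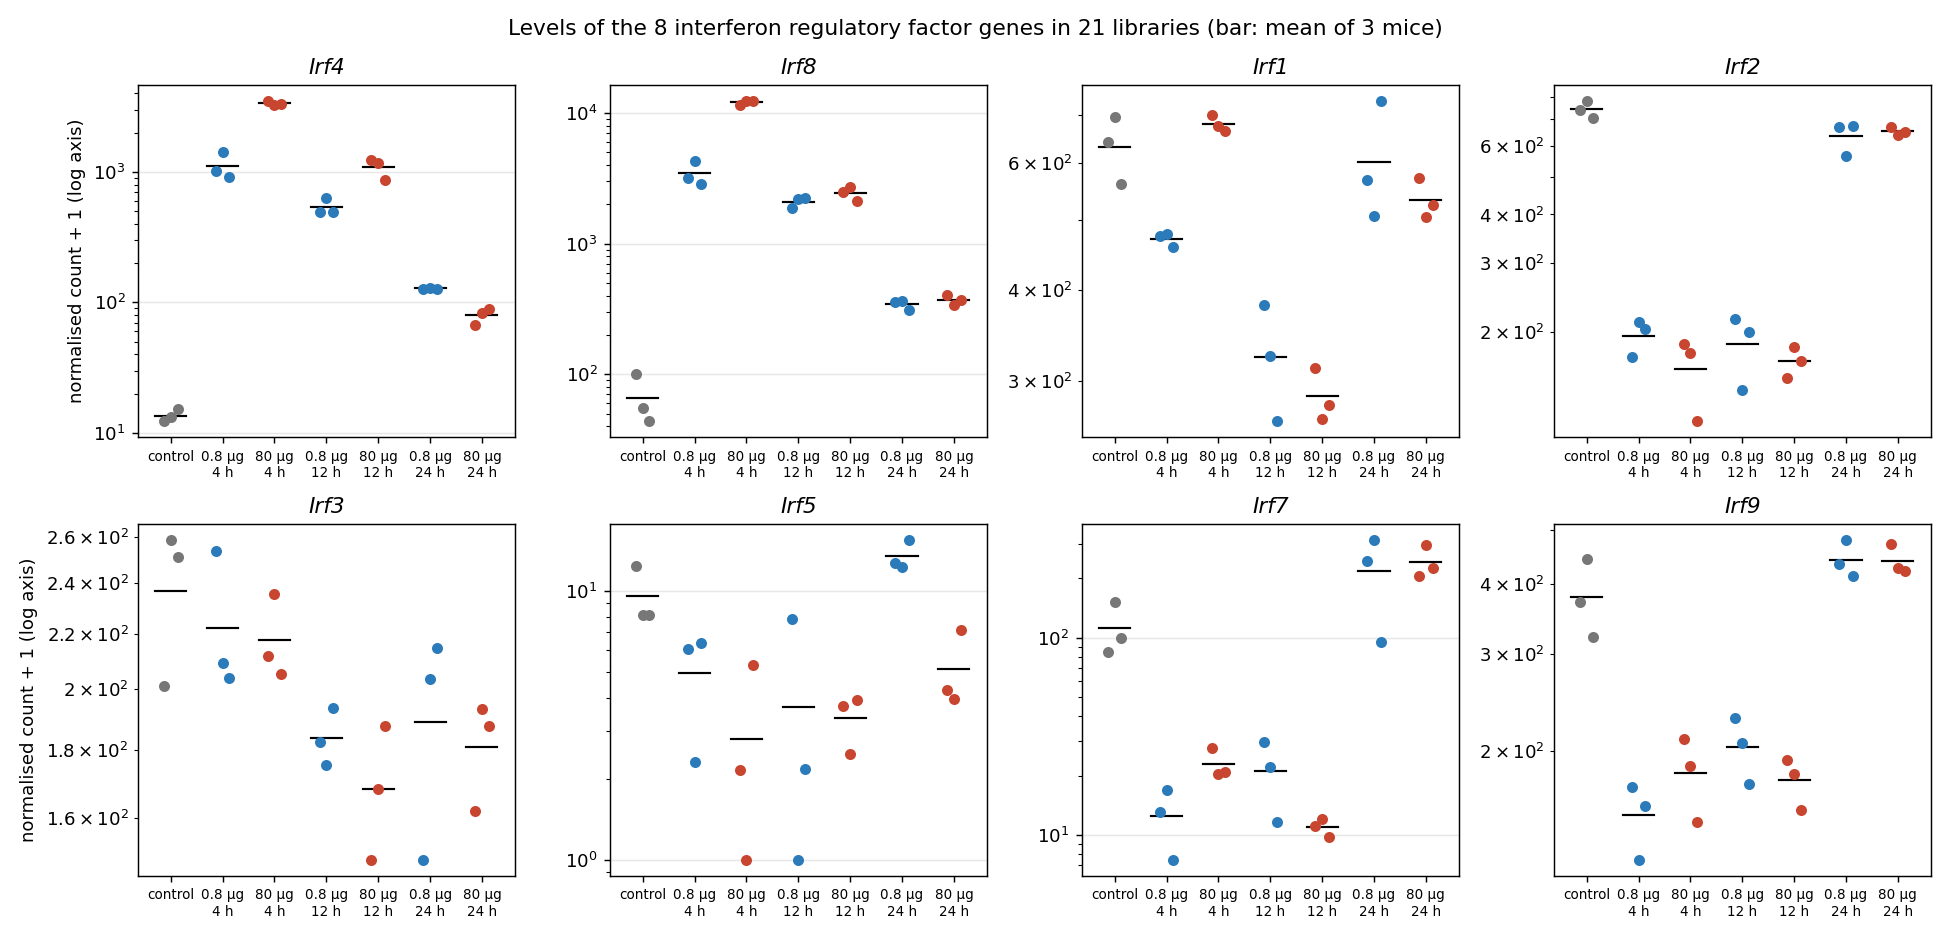
Normalised count + 1 (log axis, which does not start at 0 and differs between panels) of each of the 8 genes in the 21 libraries, by group; a point is 1 mouse, the bar is the mean of 3, grey is the untreated control, blue 0.8 µg and red 80 µg. Irf4 and Irf8 stand highest at 4 h with 80 µg (3360 and 12100 on average), whereas Irf2, Irf7 and Irf9 are low at 4 h and 12 h and near or above the control at 24 h.

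Irf4, on chromosome 13 (30749226 to 30766976, + strand), was measured at 1015, 1429 and 909 normalised counts in the 0.8 µg mice at 4 h, and at 3495, 3275 and 3312 in the 80 µg mice. The groups did not overlap, and the 80 µg mice lay close together. Its mean was 3360 ± 118 (SD, n = 3) against 1120 ± 275, a log2 fold change of 1.58 ± 0.15 (SE), or 2.99-fold, with an adjusted p of 3.93e-24. At 12 h the libraries held 494, 626 and 492 with 0.8 µg, and 1230, 1176 and 862 with 80 µg, again without overlap. The difference was then 1.01 ± 0.15 on the log2 scale (adjusted p = 3.95e-09), just past the fold threshold, and it lay between 0.91 and 0.96, under that threshold, when 0.8 µg replicate 1, 0.8 µg replicate 3, 80 µg replicate 1 or 80 µg replicate 2 was left out. At 24 h the order had turned, with 127, 129 and 126 normalised counts at 0.8 µg above 65.8, 82.4 and 88.7 at 80 µg. This difference of -0.66 ± 0.18 had an adjusted p of 0.00822 and was under the fold threshold.

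Irf8, on chromosome 8 (120736358 to 120756694, + strand), was at 3172, 4306 and 2890 normalised counts in the 0.8 µg mice at 4 h and at 11640, 12340 and 12400 in the 80 µg mice. As for Irf4, no mouse of one dose reached the other. The means were 3460 ± 750 and 12100 ± 420, a log2 fold change of 1.80 ± 0.14 or 3.49-fold. Irf8 was among the genes that the study selected from this comparison for its strong-signal gene set, so that its place in that set is not independent evidence of the direction. By 12 h the doses overlapped, at 1866, 2197 and 2236 with 0.8 µg and 2481, 2706 and 2133 with 80 µg, and the interval of the log2 difference ran from -0.06 to 0.49. At 24 h the levels were 357, 366 and 310 with 0.8 µg and 401, 339 and 372 with 80 µg, and the interval was -0.19 to 0.39.

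Irf1 was next in size of those with an adjusted p under 0.05 at 4 h, with 474, 477 and 459 normalised counts at 0.8 µg and 698, 674 and 664 at 80 µg. The groups were apart, yet the log2 fold change of 0.53 ± 0.13 (1.44-fold, adjusted p = 0.00121) was under the fold threshold. It was -0.18 ± 0.14 at 12 h and -0.17 ± 0.13 at 24 h, with overlapping groups. Irf7 was at 12.1, 15.8 and 6.47 with 0.8 µg and at 26.6, 19.4 and 19.7 with 80 µg at 4 h, a difference of 0.87 ± 0.43 that did not pass (adjusted p = 0.198), and at 12 h its difference was -0.95 ± 0.42 (adjusted p = 0.192). The differences of Irf2, Irf3 and Irf9 ranged from -0.29 to 0.24 over the 3 times, and those near 0 changed sign with the library left out or the scaling, as listed in the closing section. Their adjusted p-values were all at or above 0.293.

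Irf5 was too low for a dose comparison at this depth. It reached at most 14 counts in a library, 9 of the 18 immunised libraries were at or under the floor of 3 counts, and DESeq2 gave it no adjusted p between doses at 4 h or 24 h. Its 24 h levels of 11.7, 11.2 and 14.5 normalised counts with 0.8 µg and 3.29, 2.94 and 6.16 with 80 µg did not overlap, with an unadjusted p of 0.0686.

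**Figure D2:**
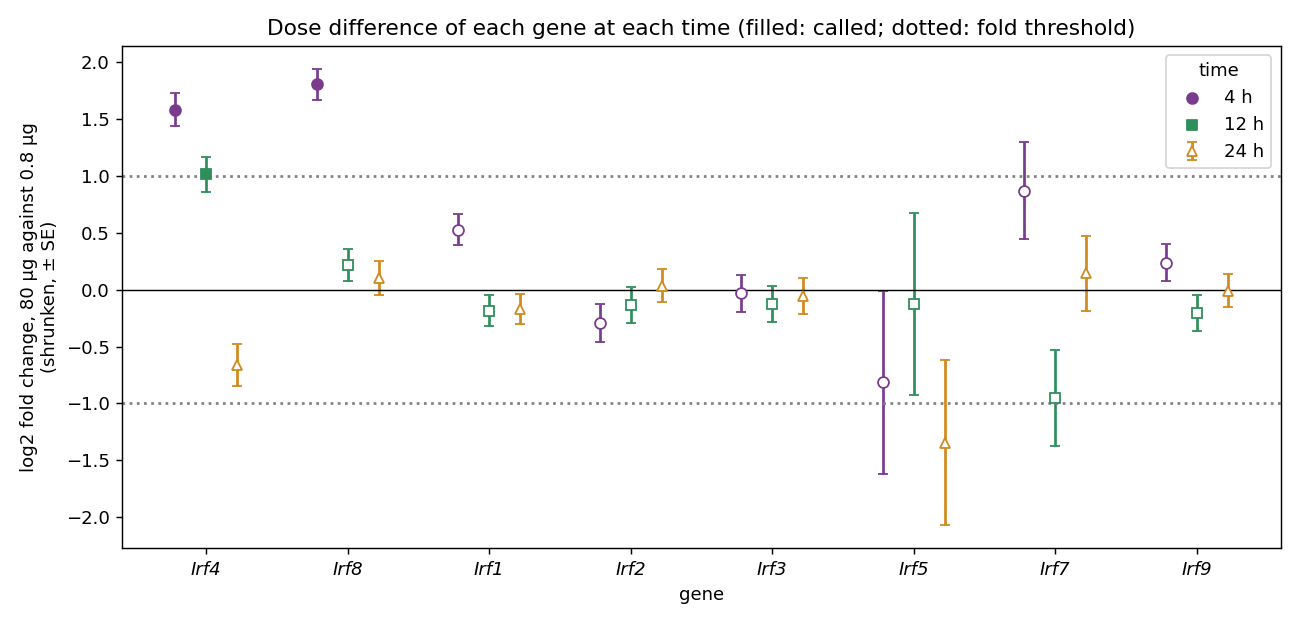
Shrunken log2 fold change of 80 µg against 0.8 µg (points, ± SE) for each gene at 4 h, 12 h and 24 h; filled points are called and the dotted lines mark the fold threshold. Filled points are limited to Irf4 at 4 h and 12 h (1.58 and 1.01) and Irf8 at 4 h (1.80).

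Whether the dose effect itself differed between times was tested by the likelihood ratio test of the dose by time interaction in the 18 immunised libraries. It passed for 3 of the 7 members with an adjusted p, where 10.4% of all tested genes passed. These were Irf8 (adjusted p = 8.13e-23), Irf4 (2.67e-18) and Irf1 (0.00251). Irf7 had an adjusted p of 0.0677, and Irf2, Irf3 and Irf9 lay between 0.426 and 0.971.

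The comparison with the untreated mice asked how each factor moved after antigen, and the members fell into different courses. Irf4 and Irf8 were called higher in all 6 immunised groups, Irf2 and Irf7 were called lower in all 4 groups of 4 h and 12 h, and Irf9 in 3 of those 4. With 0.8 µg, 5 members were called at 4 h, 4 at 12 h and 2 at 24 h, where 40.7%, 37.7% and 17.3% of all tested genes were. With 80 µg, 5, 6 and 3 members were called, where 43.5%, 37.9% and 20.2% of all tested genes were. These 6 comparisons share the 3 control libraries.

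Irf4 was at 11.3, 12.2 and 14.3 normalised counts in the control mice, below every immunised library. Against that level it was higher by 6.31 ± 0.27 and 7.89 ± 0.27 on the log2 scale at 4 h with 0.8 µg and 80 µg (adjusted p = 2.58e-107 and 8.21e-167). The increase was 5.27 ± 0.27 and 6.28 ± 0.27 at 12 h, and 3.20 ± 0.28 and 2.54 ± 0.28 at 24 h, when Irf4 was still 9.18-fold and 5.8-fold above the control. In order of level, 80 µg at 4 h came first, then 0.8 µg at 4 h and 80 µg at 12 h, which overlapped, then 0.8 µg at 12 h, 0.8 µg at 24 h, 80 µg at 24 h and the control, none of which overlapped its neighbour.

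Irf8 was at 99, 53.7 and 42.8 normalised counts in the control mice, a wide spread, and also below every immunised library. It was higher by 5.65 ± 0.17 with 0.8 µg and by 7.45 ± 0.17 with 80 µg at 4 h, by 4.93 ± 0.17 and 5.15 ± 0.17 at 12 h, and by 2.34 ± 0.18 and 2.44 ± 0.18 at 24 h. The control to 80 µg difference at 4 h was 175-fold. Beside it, the summed myeloid markers were at 19.7 to 63.9 in that group and at 50 to 99 in the control. The 4 h levels stood above all later ones at both doses, and neighbouring groups of the same time overlapped at 12 h and at 24 h.

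Irf1, the activator, differed from the control mainly at 12 h. It was at 641, 693 and 560 normalised counts in the control, and at 311, 265 and 277 with 80 µg at 12 h, where it was called lower (-1.15 ± 0.14, adjusted p = 1.68e-16). With 0.8 µg at 12 h the values were 380, 323 and 263, and the difference of -0.96 ± 0.14 was just under the fold threshold; it was past it when control replicate 3 or 0.8 µg replicate 1 was left out (-1.04 and -1.09). At 4 h the difference was -0.43 ± 0.13 with 0.8 µg (adjusted p = 0.00335, under the fold threshold) and 0.10 ± 0.13 with 80 µg (adjusted p = 0.532), and at 24 h the adjusted p was 0.705 and 0.125.

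Irf2, the antagonist of Irf1, was called lower by about the same amount at 4 h and 12 h with either dose. The control held 738, 780 and 707 normalised counts, and the 12 libraries of 4 h and 12 h lay between 117 and 216. The log2 fold changes were -1.92 ± 0.15 and -2.21 ± 0.15 at 4 h and -1.998 ± 0.15 and -2.13 ± 0.15 at 12 h, or 0.216 to 0.264 of the control level. At 24 h Irf2 was at 668, 565 and 674 with 0.8 µg and at 667, 637 and 650 with 80 µg, which was -0.22 ± 0.14 and -0.19 ± 0.14 from the control with adjusted p of 0.229 and 0.31.

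Irf9 was at 371, 443 and 320 normalised counts in the control and at 126 to 228 in the 12 libraries of 4 h and 12 h. It was called lower at 4 h with both doses (-1.30 ± 0.16 and -1.06 ± 0.16) and at 12 h with 80 µg (-1.10 ± 0.16), and was under the fold threshold at 12 h with 0.8 µg (-0.89 ± 0.15, adjusted p = 3.17e-08). The calls with 80 µg were lost at 4 h without control replicate 2 (-0.93) or 80 µg replicate 3 (-0.92), and at 12 h without control replicate 2 (-0.97). At 24 h Irf9 was at 413 to 480 in all 6 libraries, overlapping the control.

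Irf7, which amplifies the type I interferon response, was below the control at 4 h and 12 h and near or above it at 24 h. It was at 83.5, 151 and 98.5 normalised counts in the control, at 6.47 to 28.4 in all 12 libraries of 4 h and 12 h, and at 93.9 to 313 in the 6 libraries of 24 h. The log2 difference from the control was -3.14 ± 0.41 with 0.8 µg and -2.27 ± 0.37 with 80 µg at 4 h, and -2.37 ± 0.37 and -3.32 ± 0.40 at 12 h. At 24 h the 80 µg mice, at 204, 293 and 224, were called higher (1.09 ± 0.34, adjusted p = 0.00467), a call that was lost without control replicate 1 (0.94) or 80 µg replicate 2 (0.89). The 0.8 µg mice were at 244, 313 and 93.9, and the difference of 0.94 ± 0.34 (adjusted p = 0.0173) was under the fold threshold; without replicate 3, the lowest of them, it was 1.29 and past it, as it was without control replicate 2 (1.25).

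Irf3 was never called. Its group means ran from 167 ± 19.3 with 80 µg at 12 h to 236 ± 31.3 in the control, and each group overlapped its neighbour in that order. The difference from the control reached an adjusted p under 0.05 at 12 h (-0.36 ± 0.16 and -0.49 ± 0.16, adjusted p = 0.0436 and 0.00525) and with 80 µg at 24 h (-0.38 ± 0.16, adjusted p = 0.044). Irf5 was at 11.3, 7.1 and 7.14 normalised counts in the control, and was called in none of the 6 comparisons, with 2 of them at an unadjusted p under 0.05 in DESeq2. With 80 µg at 4 h it was called lower under the strict filter on low counts (-1.78, adjusted p = 0.0357), with the replicate block (-1.75, 0.0386) and without 80 µg replicate 3 (-2.44, 0.0307), and with 0.8 µg at 12 h without 0.8 µg replicate 1 (-2.61, 0.0187).

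B cell markers moved with the fall and return of Irf2, Irf7 and Irf9. All 11 markers reached 10 counts over the libraries, and none was at 0 throughout. Their summed normalised count was 1390 to 1680 in the control, 187 to 355 and 165 to 181 at 4 h, 156 to 435 and 142 to 336 at 12 h, and 1160 to 1290 and 1470 to 1710 at 24 h with 0.8 µg and 80 µg. Ighm made up most of it, and without Ighm the sums were 201 to 566 in the control, 77.2 to 240 at 4 h, 21.4 to 289 at 12 h and 46.2 to 245 at 24 h. The T cell markers given above were also lower at 4 h and 12 h. Of the 5 plasmacytoid dendritic cell markers, Pacsin1 and Tcf4 reached 10 counts over all libraries. The sum of all 5 was 233 to 277 in the control, 41.8 to 148 at 4 h and 12 h, and 98.6 to 236 at 24 h. Markers of NK cells summed to 0 to 23.7 and those of CD8 T cells to 45.7 to 181 over all libraries. The part of these markers in the courses of Irf2, Irf7 and Irf9 was not tested.

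**Figure D3:**
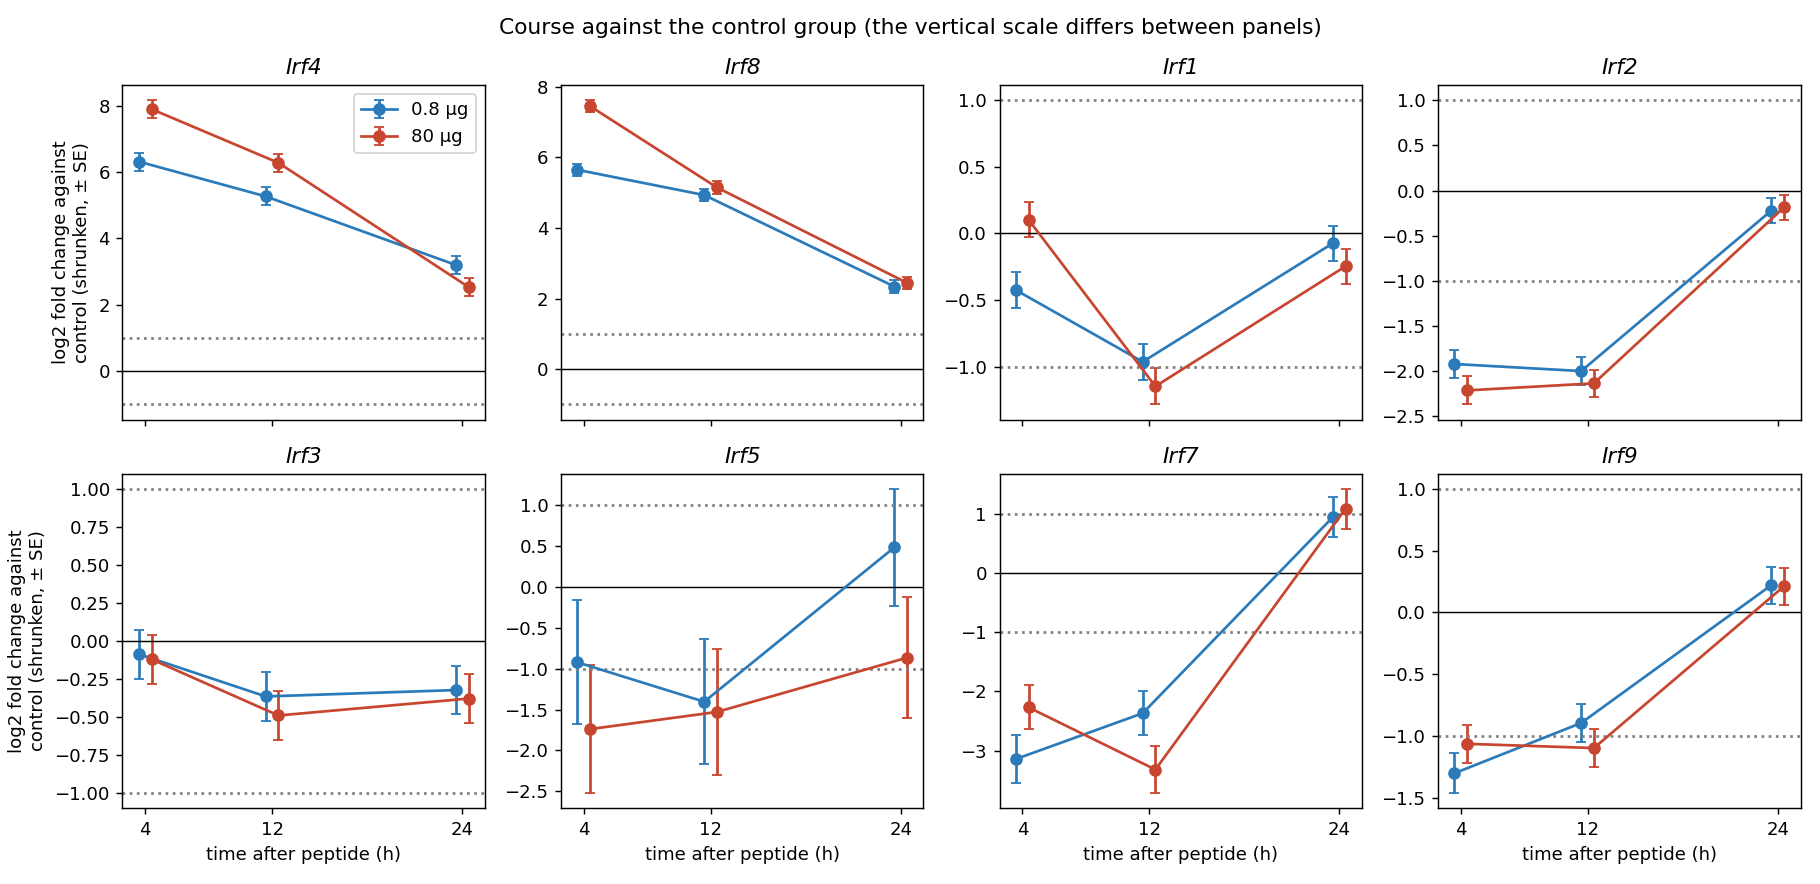
Shrunken log2 fold change of each immunised group against the untreated control (points, ± SE) at 4 h, 12 h and 24 h for 0.8 µg (blue) and 80 µg (red); the dotted lines mark the fold threshold and the vertical scale differs between panels. Irf4 and Irf8 decline from 4 h to 24 h (3.20 and 2.54, 2.34 and 2.44), whereas Irf2, Irf7 and Irf9 lie at or below -0.89 at 4 h and 12 h and near or above 0 at 24 h.

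From one time to the next within a dose, the sorting gate changed along with the hours. With 0.8 µg, only Irf4 was called between 4 h and 12 h (-1.05 ± 0.15), 1 of 8 members where 20.5% of all tested genes were called, and the call was lost without 4 h replicate 2 (-0.83), 12 h replicate 1 (-0.995) or 12 h replicate 3 (-0.991). With 80 µg, 4 members were lower at 12 h than at 4 h (24.8% of all tested genes were called), with log2 differences of -2.30 ± 0.14 for Irf8, -1.62 ± 0.15 for Irf4, -1.25 ± 0.13 for Irf1 and -1.05 ± 0.42 for Irf7. The call of Irf7 (adjusted p = 0.0308) was lost without 4 h replicate 1 or any 1 of the 12 h replicates, with adjusted p of 0.0524 to 0.109, and in a fit to the 6 libraries compared (0.0805). From 12 h to 24 h, Irf4 and Irf8 were lower again with both doses, at -2.07 ± 0.17 and -2.59 ± 0.14 with 0.8 µg and at -3.74 ± 0.17 and -2.71 ± 0.14 with 80 µg. Irf2, Irf7 and Irf9 were higher over the same step, Irf7 most, by 3.31 ± 0.37 and 4.40 ± 0.39. In all, 6 members were called in this step with 0.8 µg (26.6% of all tested genes), and 5 with 80 µg (27.2%). The remaining gene was Irf5 with 0.8 µg (1.89 ± 0.75, adjusted p = 0.036), a call lost without 12 h replicate 2 or 3 or without any 1 of the 24 h replicates, with adjusted p of 0.0686 to 0.182, and in the fit to the 6 libraries compared (0.0632).

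Members with similar courses were looked for over the 21 libraries of the deposited log2 values, among 8752 other genes whose mean reached 20 normalised counts. The genes most like Irf4 were Irf8 (Pearson r = 0.986), Prps1 (0.985), an enzyme of nucleotide synthesis, and Il2ra (0.979), the high-affinity chain of the interleukin-2 receptor. By group means the order differed, with Prps1 first, Irf8 at rank 4 and Il2ra at rank 13, and on log2 CPM Prps1 was first and Irf8 at rank 2. Those most like Irf8 were Irf4, Imp3 (0.983), a component of ribosome assembly, and Prps1 (0.983). By group means these ranked 10 (Irf4), 15 (Imp3) and 5 (Prps1). These correlations describe libraries that fall into 7 groups and share their depth, and carry no test.

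Some members overlap other genes, and the strand setting of the counting step is not given in the sources used here. Exons of Irf1, Irf3, Irf5 and Irf7 overlap genes on the opposite strand (Gm17334, Bcl2l12, Tnpo3 and Phrf1), and those of Irf9 overlap Rnf31 on the same strand. Gm17334 had no counts, and Bcl2l12 had group means of 8.36 to 21.1. Rnf31 had group means from 62.8 with 80 µg at 12 h to 108 in the control, beside 152 to 442 for Irf9. Phrf1 was at 606 to 641 at 4 h, 407 to 414 at 12 h, and 334 to 352 in the control and at 24 h. Tnpo3 was at 941 to 995 at 4 h, 728 to 819 at 12 h, and 419 to 463 in the control and at 24 h, far above the 1.81 to 12.4 of Irf5. The part of such reads in the levels of the members was not tested.

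Partners of interferon regulatory factors were examined next, in 1 list with the corepressors that bind Irf2. The list had 13 genes, 11 of them measured. At 4 h 2 of the 10 tested were called higher with 80 µg and 1 lower, with a median of 0.08, where 3.12% of all tested genes were higher and 2.74% lower with a median of -0.02. Batf, which binds with Irf4 at composite sites, was at 498 ± 37.2 against 246 ± 38.1 (1.01 ± 0.18, adjusted p = 6e-07), and Junb, a Jun family partner of Batf, was higher by 1.07 ± 0.16. Irf2bp2, a corepressor that binds Irf2, was lower (-1.11 ± 0.14), at 261 ± 14.8 against 566 ± 38.2. Both higher calls lie close to the fold threshold, and the count of higher genes was 0 without 0.8 µg replicate 3 and 1 without 80 µg replicate 1 or 2. At 12 h and 24 h 0 were called between doses in DESeq2 and 0 in edgeR, with 4 and 3 at an unadjusted p under 0.05 in DESeq2.

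Of 10 T cell genes linked to Irf4 with Batf, 8 were tested at 4 h and 12 h, and at each of these times the 80 µg dose had 6 of them higher and 1 lower, with medians of 2.73 and 2.499; with the genes at the floor set to their bound, the 4 h median was 2.43. Over all tested genes 3.12% were higher and 2.74% lower at 4 h, and 1.83% and 0.96% at 12 h. Ctla4, an inhibitory receptor, was at 344 ± 85.3 against 3.46 ± 2.15 at 4 h (5.93 ± 0.55), and Il21, a cytokine that helps B cells, was at least 44.9-fold higher, the 0.8 µg mice being at or under the floor. Il10, a regulatory cytokine, was at least 3.65-fold higher at 4 h and was at 32.4 ± 7.93 against 1.81 ± 1.98 at 12 h. Prdm1, which encodes Blimp-1, was higher by 3.21 ± 0.43 at 12 h and by 1.36 ± 0.41 at 24 h, and the 24 h difference of Il21 was at least 7.24-fold. At 24 h 6 genes of the list were tested between doses, and 2 were higher and 0 lower, where 0.89% of all tested genes were higher and 0.673% lower. The 24 h count of 2 genes was 1 without any 1 library other than 0.8 µg replicate 3. Against the control, where 8 were tested in each group, 1, 0 and 2 were called higher and 3, 1 and 2 lower with 0.8 µg at 4 h, 12 h and 24 h, and 4, 6 and 3 higher and 1, 2 and 0 lower with 80 µg. Of all tested genes, 17.3%, 17.2% and 11.5% were higher and 23.4%, 20.5% and 5.84% lower with 0.8 µg, and 18.4%, 17.8% and 12.3% higher and 25.1%, 20.1% and 7.91% lower with 80 µg. With 1 library left out, the 0.8 µg counts ran from 0 to 1 higher at 4 h, 0 to 2 higher at 12 h and 0 to 2 lower at 24 h. With 80 µg at 12 h the lower count ran from 1 to 2. The gene called lower between doses at 4 h and 12 h, named after its values were seen, was Gata3, the factor of type 2 helper cells, at -1.59 ± 0.15 and -2.33 ± 0.17.

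Of 18 antigen presentation and GTPase genes linked to Irf1, 17 were tested between doses at 4 h, and 9 were called higher and 1 lower (3.12% and 2.74% of all tested genes), with a median of 1.09 beside -0.02. Against the control at 4 h, 2 of 18 were higher and 10 lower with 0.8 µg (median -1.17), and 5 were higher and 5 lower with 80 µg (median -0.08). Of all tested genes, 17.3% were higher and 23.4% lower with 0.8 µg, and 18.4% and 25.1% with 80 µg. At 12 h 2 were higher with each dose and 7 and 6 lower, where 17.2% and 17.8% of all tested genes were higher and 20.5% and 20.1% lower. At 24 h 6 were higher with each dose and 0 lower, where 11.5% and 12.3% were higher and 5.84% and 7.91% lower. Between doses at 4 h, the interferon-inducible chemokine Cxcl9 was at least 15.8-fold higher, and the guanylate-binding proteins Gbp5 and Gbp2 were higher by 3.07 ± 0.30 and 2.69 ± 0.27. Cd274, which encodes PD-L1, was the gene called lower (-1.31 ± 0.16), and is named after its values were seen. At 12 h only Gbp5 of the 17 tested was called between doses (1.12 ± 0.31), where 1.83% of all tested genes were higher and 0.96% lower. This call was lost without replicate 2 of either dose. At 24 h 0 were called in DESeq2 and 0 in edgeR, with 2 at an unadjusted p under 0.05 in DESeq2.

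Interferon genes themselves were near silent apart from Ifng, the only one of 8 ligands with 10 counts over all libraries. Ifng was at 0 in the control mice and at 7.07, 5.27 and 0 normalised counts with 0.8 µg at 4 h. With 80 µg at 4 h it was at 772, 122 and 52.3, a spread set by replicate 1, and was called higher than with 0.8 µg (5.23 ± 0.76). At 12 h the order of the doses was opposite, at 110, 120 and 241 with 0.8 µg and 28.3, 29.3 and 35 with 80 µg. That difference of -2.04 was not called in DESeq2, while edgeR called it lower.

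Among 18 sensors, adaptors and kinases upstream of Irf3, Irf5 and Irf7, 16 were tested between doses at 4 h and 1 was called (5.85% of all tested genes), with 5 at an unadjusted p under 0.05. This was Ikbke, a kinase of Irf3 and Irf7, at 14.5 ± 5.74 with 80 µg against 90.8 ± 8.54 (-2.61 ± 0.28). Genes with an adjusted p under 0.05 and a difference under the fold threshold, named after their values were seen, were Myd88 (0.71), Tank (0.79) and Irak1 (-0.42) at 4 h, Myd88 (0.58), Cgas (0.83) and Tmem173 (0.59) at 12 h, and Cgas (0.92) at 24 h. At 12 h and 24 h 0 genes of the list were called by DESeq2 and 0 by edgeR, with 3 and 2 at an unadjusted p under 0.05 in DESeq2.

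Among 12 interferon receptor, JAK, STAT and inhibitor genes, 3 passed as higher at the 80 µg dose and 1 as lower at 4 h (3.12% and 2.74% of all tested genes). The lower call, of the kinase Tyk2 (-1.01 ± 0.25), named after its values were seen, was lost with TMM scaling in DESeq2 and without 0.8 µg replicate 1, 0.8 µg replicate 3 or 80 µg replicate 3. The inhibitors Socs3 and Socs1 were higher by 4.06 ± 0.46 and 2.35 ± 0.38, and Stat2 was at 66.3 ± 13.7 against 26.6 ± 7.21 (1.27 ± 0.28). Socs3 was also called higher at 12 h (1.55 ± 0.44) and at 24 h (1.34 ± 0.44), and Ifngr2, a chain of the interferon gamma receptor, was lower at 24 h (-1.17 ± 0.33). Over all tested genes 1.83% were higher and 0.96% lower at 12 h, and 0.89% and 0.673% at 24 h. The call of Socs3 was lost at 12 h without replicate 3 of either dose, and at 24 h without any 1 library other than 0.8 µg replicate 3. The call of Ifngr2 was lost without 0.8 µg replicate 3, 80 µg replicate 2 or 80 µg replicate 3. Against the control, 8 of the 12 were lower with 0.8 µg, and 7 with 80 µg, at 4 h and again at 12 h, where 23.4% and 25.1% of all tested genes were lower at 4 h and 20.5% and 20.1% at 12 h.

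The 19 type I interferon-stimulated genes were mostly lower than in the control at 4 h and 12 h and higher at 24 h. Against the control, 12 were called lower and 0 higher with 0.8 µg at 4 h, and 12 lower and 1 higher with 80 µg, where 23.4% and 25.1% of all tested genes were lower. At 12 h 11 and 13 were lower and 1 and 2 higher, where 20.5% and 20.1% of all tested genes were lower and 17.2% and 17.8% higher. The higher call at 4 h with 80 µg was lost without control replicate 1. At 24 h 13 were higher with 0.8 µg and 15 with 80 µg and none lower, where 11.5% and 12.3% of all tested genes were higher, and the medians of the list were 1.68 and 1.81 beside 0.00 for all tested genes. With 0.8 µg at 24 h the count was 9 without replicate 2 and 14 without replicate 3. Between doses at 4 h, 18 of these genes were tested. With 80 µg 2 were called higher, Zbp1 (1.49 ± 0.36) and Oas2 (1.83 ± 0.61), and 0 lower. Over all tested genes 3.12% were higher and 2.74% lower in that comparison. The count of 2 was 1 without any 1 of the 0.8 µg replicates or 80 µg replicate 2. At 12 h and 24 h 0 were called by DESeq2 and 0 by edgeR, with 3 and 2 at an unadjusted p under 0.05 in DESeq2.

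In single libraries, the summed normalised count of these genes was 946 to 1310 in the control, 346 to 411 and 424 to 512 at 4 h, and 551 to 698 and 705 to 762 at 12 h. At 24 h it was 3420, 4780 and 1410 with 0.8 µg and 3360, 3780 and 3740 with 80 µg. The 0.8 µg mouse with the lowest sum at 24 h, replicate 3, was also the one with the lowest Irf7.

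**Figure D4:**
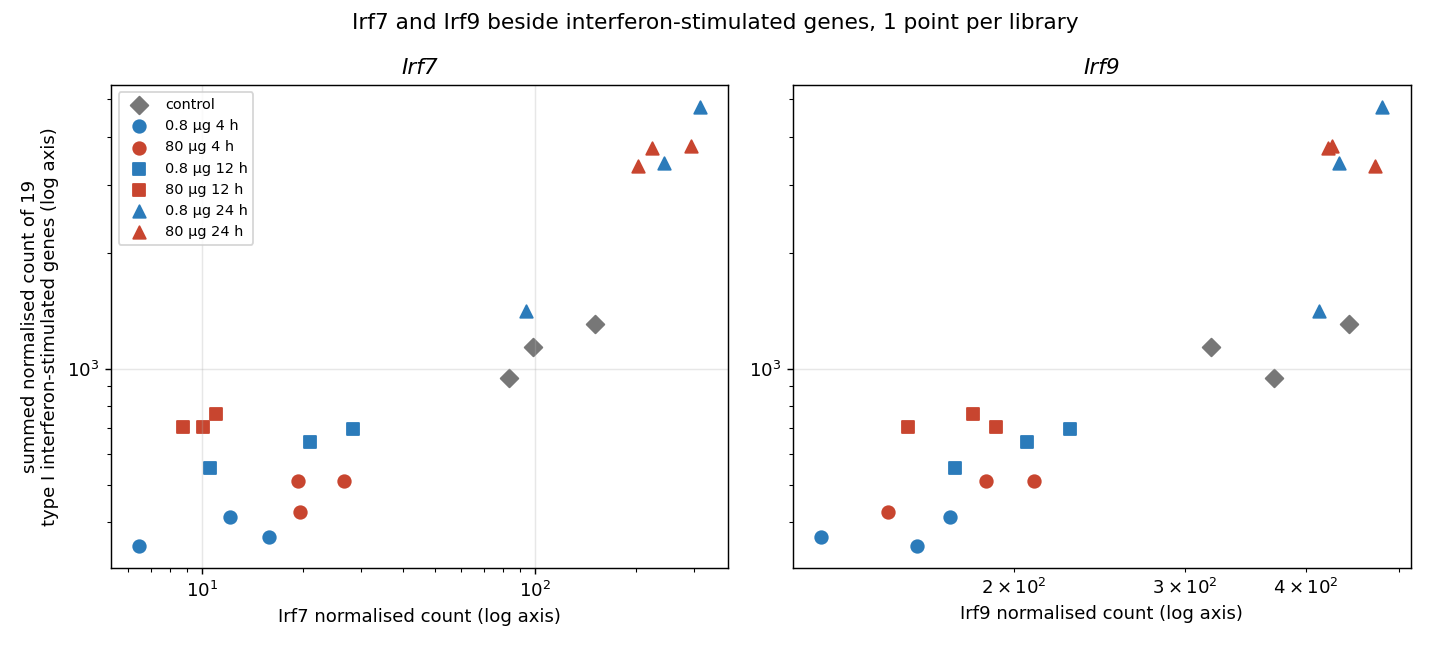
Summed normalised count of 19 type I interferon-stimulated genes against the normalised count of Irf7 (left) and Irf9 (right), both axes logarithmic, with 1 point per library coloured by dose and shaped by time. The 4 h and 12 h libraries lie at the lower left with Irf7 at or under 28.4, and all 6 libraries of 24 h lie above the controls on the vertical axis, the lowest of them, 0.8 µg replicate 3, at an Irf7 level of 93.9 inside the control range.

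**Figure D5:**
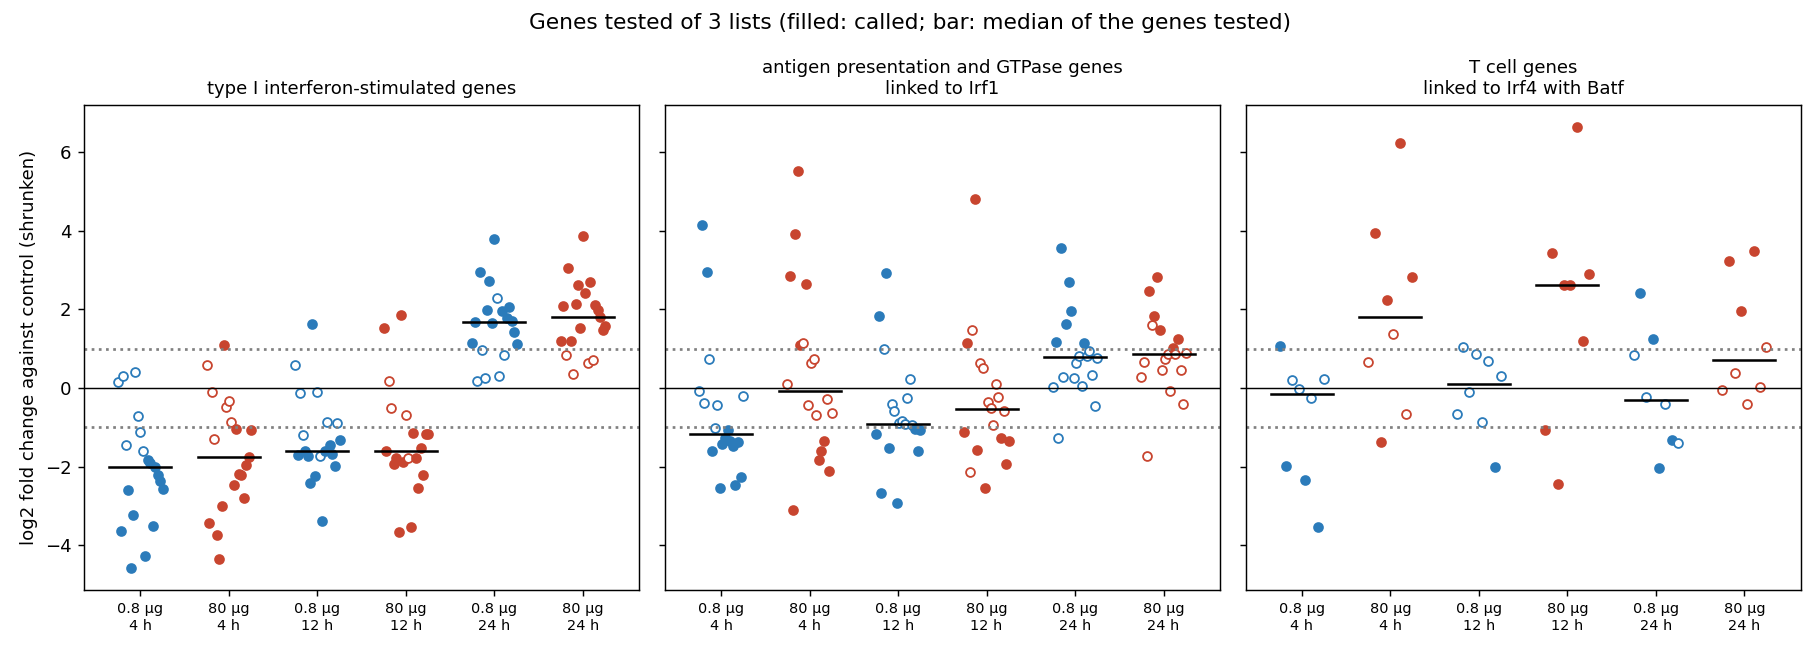
Shrunken log2 fold change against the control of each tested gene of 3 lists in the 6 immunised groups; filled points are called, the bar is the median of the genes tested, blue is 0.8 µg and red 80 µg. The type I interferon-stimulated genes lie mostly below 0 at 4 h and 12 h and above 0 at 24 h (medians 1.68 and 1.81), and the genes linked to Irf4 with Batf have medians of -0.14, 0.10 and -0.32 with 0.8 µg and 1.81, 2.62 and 0.71 with 80 µg at 4 h, 12 h and 24 h; with the genes at the floor set to their bound, the 0.8 µg medians are -0.05 at 12 h and -0.11 at 24 h.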

How the data were processed

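RNA of sorted splenic CD4+ T cells was sequenced as 3′ tag libraries, 3 mice in each of 7 groups. The authors trimmed, aligned (STAR 2.5.2a, mm10) and counted reads (HTSeq) and deposited raw counts per gene and regularised log2 values made with DESeq2; the strand setting of counting and the annotation release are not given in the sources used here. Totals ranged from 2352800 to 6244279 counts, so that low genes such as Irf5 rest on few reads. Reads were counted without molecular identifiers, so that copies made in amplification are counted as well.

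From the deposited counts, genes with at least 10 counts in all were tested with DESeq2 1.42.0 (R 4.3.3) in 1 fit of all 21 libraries by group, with shrunken log2 fold changes and Benjamini-Hochberg adjustment over all genes. The dose by time interaction was tested by likelihood ratio in the 18 immunised libraries. Deposited log2 values served only for the genes most like Irf4 and Irf8. The interval of a difference is 95%. Counts of 14966 genes were simulated for the 4 h dose comparison. There DESeq2 recovered 61% of genes changed by 1.5 on the log2 scale and 93% of those changed by 3. edgeR 4.0.16 recovered 90% and 100%, with 0 false calls by DESeq2 and 9 by edgeR. The median shrunken ratio in these counts was 0.732 and 0.707. In the main fit, shrinkage took the 4 h dose difference from 1.590 to 1.582 for Irf4 and from 1.812 to 1.803 for Irf8. Recovery under the shrinkage of the main fit was not tested. Alternatives were edgeR, TMM scaling, other filters, a replicate block, a fit to the libraries compared, unshrunken values, the adjusted p alone and leaving out each library.

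All 8 members are named, and from each pathway list at most the 3 called genes with the largest change between doses at 4 h, and at 12 h and 24 h, with exceptions stated in the text. The members and lists were chosen with earlier results of these data known. Gene positions are from GENCODE vM21 (GRCm38) and promoters from RefSeq (GRCm38.p6), where all 8 members matched. Some genes are not reported here.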

Additional observations from a re-analysis of the deposited data

Results flagged for a closer look

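The dose effect differed between times for 3 members by the test of the dose by time interaction. For Irf4 the log2 dose effects at 4 h, 12 h and 24 h spanned 2.24 (1.58, 1.01 and -0.66), and the sign turned at 24 h. For Irf8 they spanned 1.70 (1.80, 0.22 and 0.10). For Irf1 they spanned 0.71 (0.53, -0.18 and -0.17). The sorting gate changed with the time, and gate and time cannot be told apart.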

How the results depend on the processing

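The counts of members called were mostly near the same under the alternatives. Between doses at 12 h the count fell from 1 to 0 in a fit to the 6 libraries compared, and was 0 to 1 with a library left out. With the adjusted p alone, without a fold threshold, it was 1 instead of 0 between doses at 24 h, 7 instead of 4 with 0.8 µg at 12 h against the control, and 4 instead of 1 with 0.8 µg at 12 h against 4 h, where leaving out a library gave 0 to 1. The interaction passed for 3 to 4 members with a library left out.

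Same-numbered mice correlated between -0.17 and 0.211, in 0 of 13 comparisons all above 0.1, and 13 of 39 pairs matched best with their own number. Between 4 h and 12 h with 80 µg every mouse matched its own number best (0.099, 0.073 and 0.122). The numbers were not taken to pair the samples, though this check cannot show that no batch was shared. With the replicate block, 4 members instead of 3 passed the interaction, the added one being Irf7 (adjusted p = 0.0404), and 6 instead of 5 were called with 80 µg at 4 h against the control, the added one being Irf5 (-1.75), which the strict filter also added (-1.78).

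Differences near 0 changed sign. The 24 h dose difference of Irf9 was -0.009, and 0.013 in edgeR and 0.012 with TMM scaling. The difference of Irf3 from 12 h to 24 h with 0.8 µg was 0.042, and -0.035 in the fit to 6 libraries. With a library left out, the dose difference at 4 h ran from -0.095 to 0.077 for Irf3, and at 12 h from -0.665 to 1.025 for Irf5. At 24 h it ran from -0.040 to 0.080 for Irf2, -0.201 to 0.041 for Irf3, -0.190 to 0.521 for Irf7 and -0.062 to 0.057 for Irf9. The difference of Irf1 from the control with 0.8 µg at 24 h ran from -0.237 to 0.034. Between 4 h and 12 h the range was -0.207 to 0.094 for Irf2 and -1.658 to 0.041 for Irf5 with 0.8 µg, and -0.109 to 0.187 for Irf2, -0.266 to 0.896 for Irf5 and -0.166 to 0.071 for Irf9 with 80 µg. Between 12 h and 24 h it was -0.053 to 0.189 for Irf3 with 0.8 µg. The cause was not tested.

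In the fit to 6 libraries, 145 instead of 311 genes were called between doses at 12 h and 83 instead of 151 at 24 h. Without 0.8 µg replicate 3 at 24 h, 67.9% instead of 57% of the genes called between doses were higher. Depth limits Irf5, whose libraries held at most 14 counts.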
